A study of Mus musculus with 2 samples.

Results

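The 7 genes described here are the receptors through which steroid hormones act on the uterus and a few genes long used as readouts of those receptors. They are Esr1 (oestrogen receptor alpha), Pgr (progesterone receptor), Nr3c1 (glucocorticoid receptor), Nr2f2 (the orphan nuclear receptor COUP-TFII), Greb1 (an early oestrogen target), and Fkbp5 and Tsc22d3 (glucocorticoid targets). They were chosen by symbol, and all 7 were among the 32285 genes counted. The data are 2 droplet single-cell RNA libraries of mouse uterus, which count unique molecular identifiers (UMIs) near the 3-prime end of transcripts. Both came from C57BL/6J females aged 6 months, and each was a pool of 3 mice. One library was Prickle1 f/f (group control) and the other Prickle1 f/f MiC (group cKO), from a study on loss of PRICKLE1, a planar cell polarity protein, in the myometrium, the muscle wall of the uterus. The genotype field reads wild-type for both, and the labels used here give neither the meaning of MiC, nor a Cre driver, nor a cycle stage or hormone treatment. With 1 library per group there is no test and no replicate error. Group, pool, preparation and any difference in cycle stage cannot be told apart.

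Steroid receptors are transcription factors that hormone switches on inside the cell, with the help of heat shock protein chaperones. In the uterus oestrogen acts through Esr1 and raises Pgr in stroma and muscle, while progesterone acts through Pgr to quiet the muscle and prepare the stroma for implantation. Nr2f2 is a stromal nuclear receptor that acts downstream of progesterone and the epithelial signal Ihh. Glucocorticoids act through Nr3c1, which is present in most cell types and strong in lymphocytes. Fkbp5, a co-chaperone, and Tsc22d3, the leucine zipper protein GILZ, are among the genes it raises.

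After filtering, the control-labelled library held 3490 cells (median 4953 UMIs and 1866 genes per cell) and the cKO-labelled library 3586 (median 4903 UMIs and 2038.5 genes), and 6 cell barcodes occurred in both. Epithelium-like cells were 37.8% of cells in the first and 3.07% in the second, so values are compared within cell classes only. Below, where a pair of values is given, the control-labelled library comes first. Prickle1 had 14 and 51 UMIs in smooth muscle-like cells (15.1 and 24.3 CPM, UMIs per 1000000 of the class), a ratio of 1.61 with an interval of 0.878 to 3.15, and was not lower in the cKO-labelled library. In fibroblast-like cells it was higher there, with 42 and 144 UMIs, a ratio of 2.05 (1.44 to 2.96). On fewer UMIs the ratio was 3.39 (1.42 to 9.83) in T or NK cell-like and 4.12 (1.19 to 11.6) in epithelium-like cells. The intervals in macrophage or monocyte-like and dendritic cell-like cells included 1. A 3-prime count can lie outside the deleted part, which the labels do not give, so it does not check the labels, and every direction below rests on labels alone. Free RNA was estimated at 8.94% and 2.93% of the UMIs in cells. The caller of doublets (droplets with more than 1 cell) marked 4 of 7076 cells and had not worked, so doublets remain. They can also enter the free RNA estimate, which used epithelial, muscle and fibroblast markers in T or NK cell-like cells. In the control-labelled library muscle and fibroblast markers stood at 4883 CPM in the 7 such cells with Pgr. They stood at 36.3 CPM in the others. Of the Pgr UMIs in those 7 cells, 82.4% lay in cells of high doublet score. The part of doublets in the estimate was not tested. All intervals are 95% and cover counting error only, not the variation between mice.

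Esr1, Pgr and Greb1 were highest in smooth muscle-like cells among the named classes in both libraries, while the order of Nr2f2 and of the glucocorticoid receptor differed between the libraries. With both libraries summed, a level that weights the larger library of a class more, Esr1 stood at 295 CPM (276 to 315) in smooth muscle-like cells, ahead of mesothelium-like cells at 148 (129 to 169), fibroblast-like cells at 132 (128 to 137) and epithelium-like cells at 99.1 (94.8 to 104). Mesothelium-like and fibroblast-like cells had overlapping intervals, so their order is not fixed at this depth. Every named immune class was at 15.3 CPM or less, and T or NK cell-like cells had 4 Esr1 UMIs in 600 cells.

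Pgr had a steeper order. It stood at 1454 CPM (1411 to 1498) in smooth muscle-like cells and 655 CPM (645 to 665) in fibroblast-like cells. Epithelium-like cells were far lower at 30.4 CPM (28.1 to 32.9), and dendritic cell-like and mesothelium-like cells, at 29.8 and 28.7 CPM, could not be told from them. Mast cell-like cells reached 96.8 CPM on 19 UMIs in 95 cells, and macrophage or monocyte-like cells 48.7 CPM. T or NK cell-like cells, used below as a background for stromal genes, were at 17.97 CPM.

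Nr2f2 stood at 243 CPM (226 to 261) in smooth muscle-like cells. Mesothelium-like cells at 194 (173 to 218), lymphatic endothelium-like cells at 185 (164 to 209) and fibroblast-like cells at 162 (157 to 167) followed, and each of these 3 overlapped its neighbour. That order is of the sum only. In the control-labelled library Nr2f2 was highest in lymphatic endothelium-like cells (343 CPM, 288 to 405, 22 cells) and lower in smooth muscle-like cells (188 CPM, 161 to 218), while in the cKO-labelled library these classes stood at 124 and 267 CPM. Greb1 was at 514 CPM (488 to 539.7) in smooth muscle-like cells, 248 CPM (242 to 255) in fibroblast-like cells, 118 CPM (113 to 123) in epithelium-like cells and 116 CPM (99.01 to 134) in mesothelium-like cells. The last pair did not differ beyond counting error.

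The glucocorticoid receptor had another order. Nr3c1 stood at 699 CPM (666 to 732) in T or NK cell-like cells and 576 CPM (475 to 692) in mast cell-like cells, whose intervals overlapped. The first of these values rests on clusters 12 and 22, which have T cell genes such as Cd3e and Cd4 among their leading genes. Unnamed cluster 14, with Klre1 and the cytotoxic gene Prf1, is not in that class and stood at 371 CPM (346 to 398). In the control-labelled library alone mast cell-like cells were above T or NK cell-like cells, at 669 and 575 CPM with overlapping intervals, and in the cKO-labelled library they were below, at 523 and 767 CPM. Over the sum, granulocyte-like, B cell-like and lymphatic endothelium-like cells, at 276, 271 and 251 CPM, overlapped one another. So did smooth muscle-like (185 CPM), mesothelium-like (173), macrophage or monocyte-like (154) and fibroblast-like cells (152), each with its neighbour. Dendritic cell-like cells were lower at 108 CPM (96.7 to 119.6), and epithelium-like cells were lowest at 59.5 CPM (56.2 to 63.0).

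Its targets shared part of that order. Among named classes Tsc22d3 was highest in B cell-like cells at 344 CPM (293 to 402, 160 UMIs in 52 cells), followed by mast cell-like cells at 133 (86.6 to 194) and T or NK cell-like cells at 111 (98.3 to 125), which overlapped. Smooth muscle-like cells at 19.1 (14.5 to 24.7) and epithelium-like cells at 17.5 (15.7 to 19.4) were lowest and overlapped. Fkbp5 was sparse in every class. It reached 33.5 CPM (26.8 to 41.5) in T or NK cell-like cells and 30.3 CPM (24.5 to 37.2) in smooth muscle-like cells, which overlapped, against 10.9 CPM in fibroblast-like and 2.42 CPM in epithelium-like cells. Granulocyte-like cells showed 44.2 CPM on 4 UMIs, with an interval of 12.1 to 113.

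**Figure D1:**
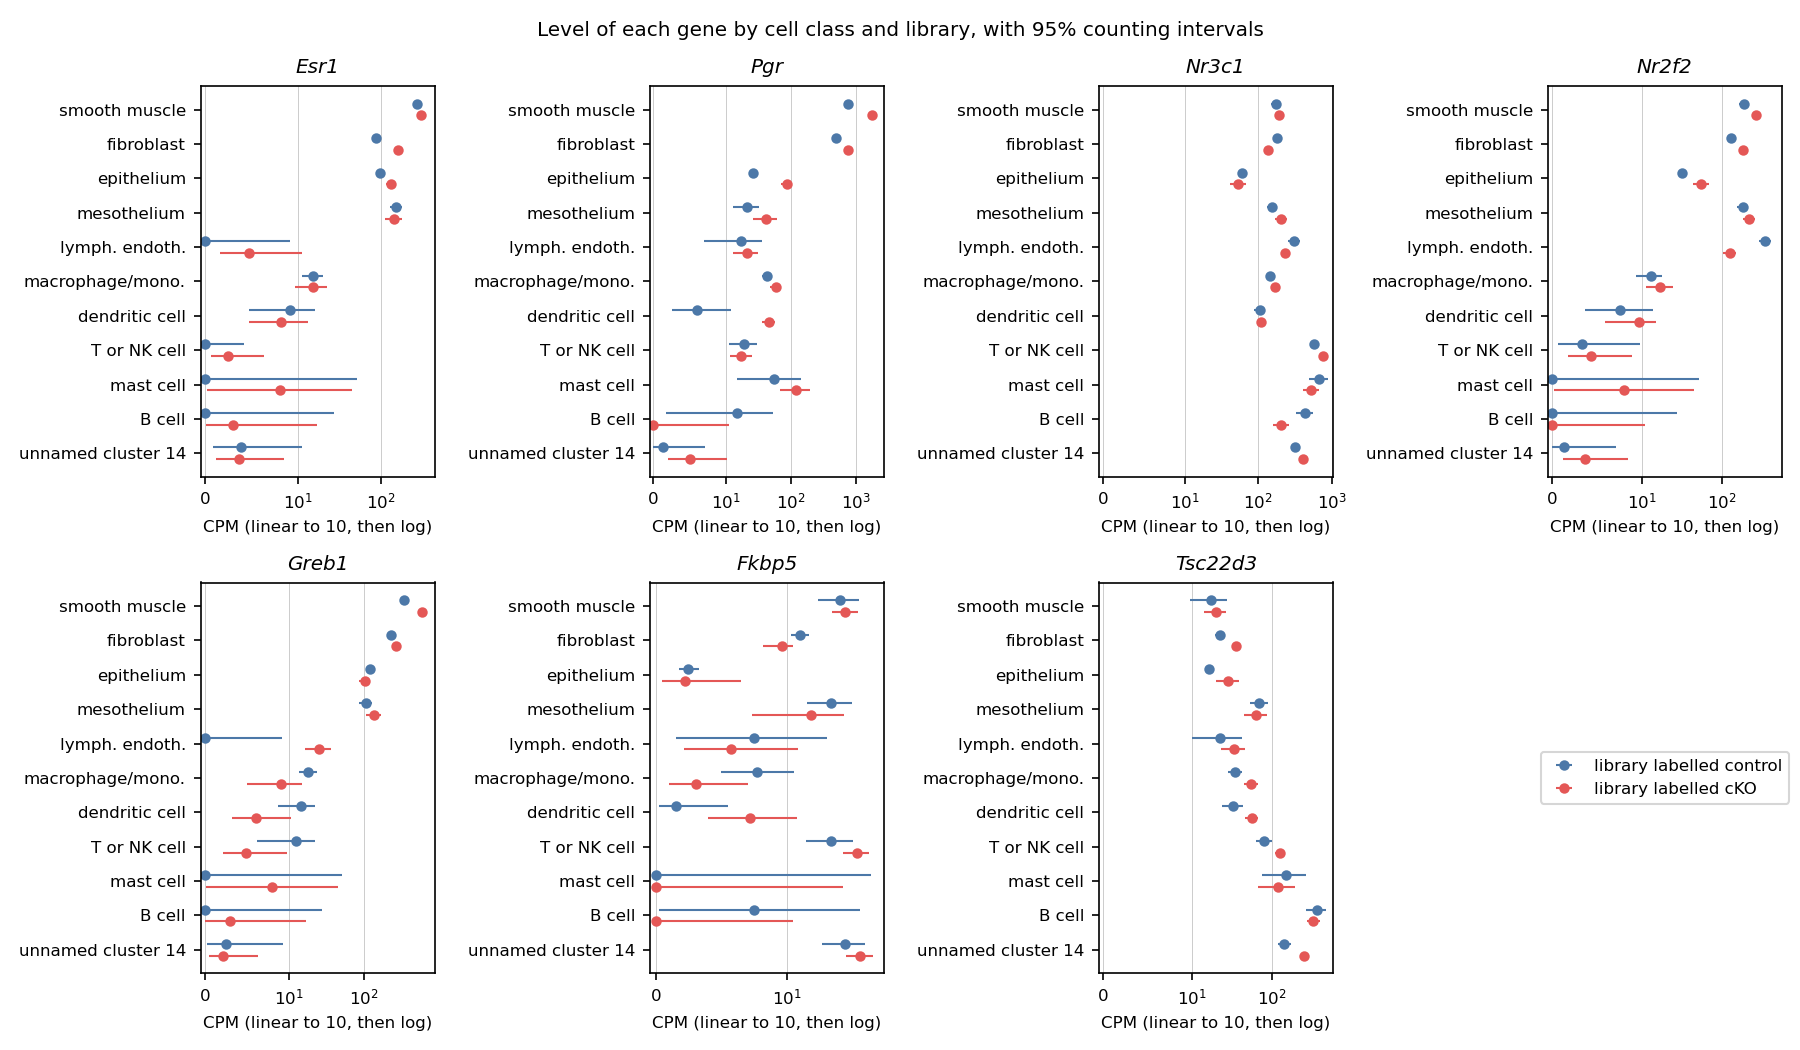
Level of each gene in CPM (x axis, linear to 10 and then logarithmic) by cell class and library. Points are summed UMIs per class with 95% Poisson intervals. Among the named classes Esr1, Pgr and Greb1 are highest in smooth muscle-like cells in both libraries, while in the control-labelled library Nr2f2 is highest in lymphatic endothelium-like cells (343 CPM) and Nr3c1 in mast cell-like cells (669 CPM).

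The libraries were then compared within the 6 classes that had at least 100 cells in both. The measure was a log2 ratio, cKO-labelled over control-labelled, with 5 CPM added to each side. Pgr had the highest ratio of the 7 genes in epithelium-like, smooth muscle-like and dendritic cell-like cells, where it was at least 2-fold higher in the cKO-labelled library, and it was higher by less in fibroblast-like cells. Greb1 was higher in smooth muscle-like cells, Esr1 in fibroblast-like cells, and Tsc22d3 by 0.57 to 0.71 in 5 of the 6 classes. With the 5 CPM added, no gene of the 7 was 2-fold lower in any of the 6. Plain ratios of CPM were under 0.5 for Fkbp5 (0.392) and Greb1 (0.495) in macrophage or monocyte-like cells, and for Greb1 in dendritic cell-like cells (0.427) and T or NK cell-like cells (0.400), on 5 to 15 cKO-labelled UMIs each.

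Called means a log2 ratio of at least 1 in size among genes with a mean of at least 10 CPM over both libraries. In smooth muscle-like cells all 7 genes passed that minimum and 1 was called higher and 0 lower, against 3.3% and 1.54% of all 8162 genes. In fibroblast-like cells all 7 passed and 0 were called, against 1.47% higher and 0.678% lower. In epithelium-like cells 6 passed and 1 was called higher and 0 lower, against 12.1% and 7.31%, so a 2-fold difference was common there. Of the 4 that passed in dendritic cell-like cells 1, Pgr, was called higher and 0 lower, against 2.74% and 2.28%. Pgr passed there only through the cKO-labelled library, so the minimum favours its call, which carries no weight. Of the 6 that passed in macrophage or monocyte-like cells 0 were called, against 1.2% higher and 4.22% lower. Of the 4 in T or NK cell-like cells 0 were called, against 1.73% higher and 3.64% lower.

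All genes together were not centred on 0. Their median log2 ratio was 0.22 in epithelium-like, 0.20 in smooth muscle-like, 0.17 in dendritic cell-like and 0.09 to 0.10 in the other 3 classes. A scaling that sets this median to 0 lowers each ratio by about as much. In smooth muscle-like cells Pgr stood 1.04, Greb1 0.57 and Nr2f2 0.29 above the median of all genes. Esr1, Nr3c1, Fkbp5 and Tsc22d3 stood between -0.07 and -0.03 from it, so the sign of their ratios in muscle turned with the scaling.

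**Figure D2:**
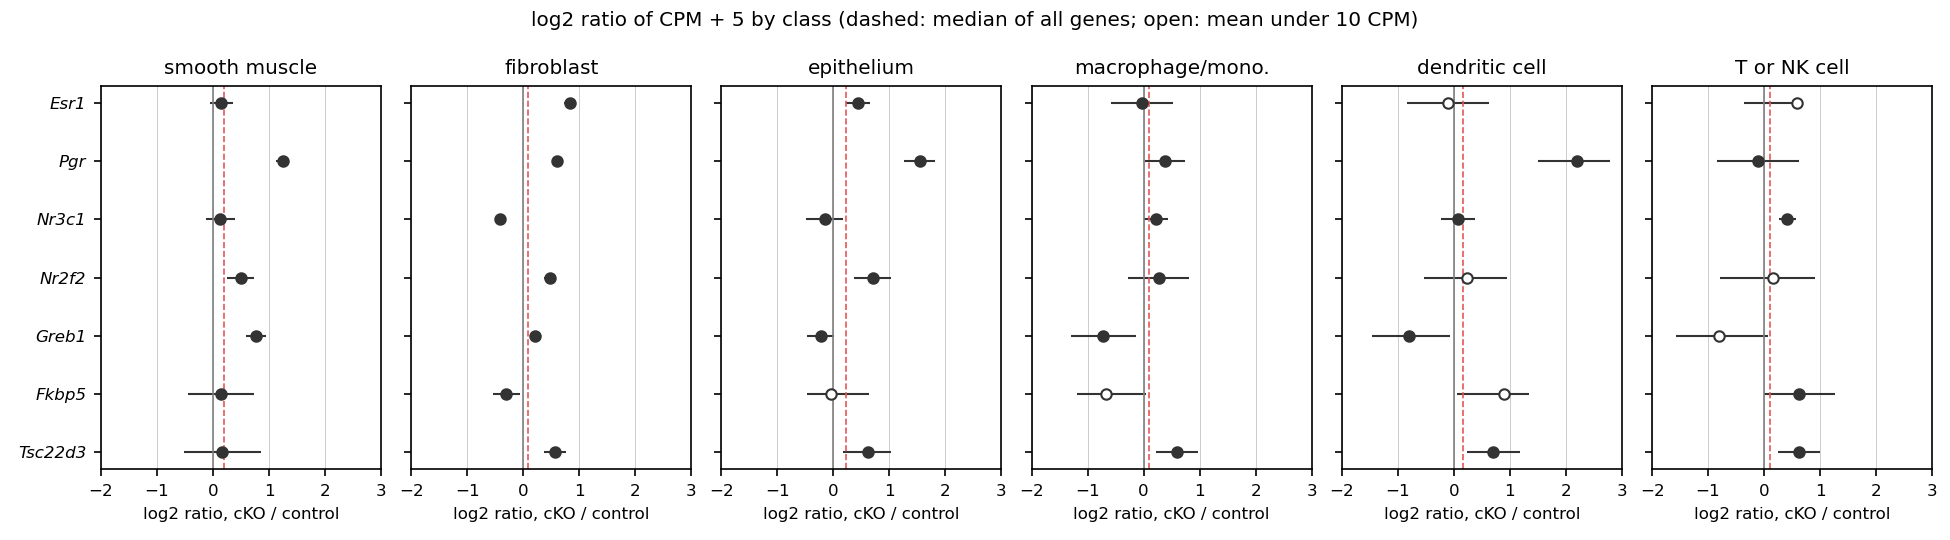
log2 ratio (x axis, cKO-labelled over control-labelled library, 5 CPM added) of each gene in the 6 classes compared, with exact 95% counting intervals. The dashed line is the median of all genes, and open symbols have a mean under 10 CPM. Pgr lies at 1.54, 1.24 and 2.19 in epithelium-like, smooth muscle-like and dendritic cell-like cells, while the interval of Esr1 in smooth muscle-like cells includes 0.

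Pgr, the receptor of progesterone (chr9:8899833-8968611, plus strand, GRCm38), was counted 691 times in 308 smooth muscle-like cells of the control-labelled library (743 CPM, 689 to 801). It was counted 3718 times in 683 such cells of the cKO-labelled library (1768 CPM, 1712 to 1826). The intervals were far apart, and the log2 ratio was 1.24 (1.13 to 1.36). Of the genes tested in this class, 1.10% had a ratio as high or higher, Pgr included. The counts were spread over many cells, since the 5 cells with most Pgr held 19.2% and 9.55% of its UMIs. Cells with at least 5 Pgr UMIs were 12.3% and 33.5% of the class. A Pgr UMI was found in 56.5% and 73.6% of smooth muscle-like cells, or 37.3% and 62.2% after thinning each cell to 1000 UMIs. T or NK cell-like cells had one in 3.83% and 4.32% (1.09% and 2.16% thinned), at median depths of 3973 and 3471 UMIs against 1882 and 2010 in smooth muscle-like cells.

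The difference was similar within both smooth muscle-like clusters compared. Cluster 13, led by the contractile genes Actg2, Pcp4 and Myl9 and shallow at 0.285 of its libraries' median depth, stood at 526 CPM (182 UMIs) and 1144 CPM (601 UMIs), a log2 ratio of 1.11 (0.87 to 1.36). Cluster 18, with Fgfr2 and Myh11 among its leading genes, stood at 841 CPM (410 UMIs) and 1784 CPM (2131 UMIs), a log2 ratio of 1.08 (0.93 to 1.24). Cluster 24 had 1035 and 2576 CPM, but with 12 control-labelled cells it was under the minimum of 20 cells in each library for a cluster to be compared.

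Other features of the smooth muscle-like cells moved with the label. Their 6 muscle markers summed to 7805 and 5052 CPM and the 6 fibroblast markers to 1038 and 645 CPM, with none at 0 in either library. The 4 erythroid markers summed to 49.5 and 899 CPM, with 1 of them at 0 in the control-labelled library. Genes that tissue digestion is known to raise took 1.47% and 0.9403% of UMIs, and the median share of mitochondrial UMIs was 2.46% and 1.44%. The part of these in the Pgr result was not tested.

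Fibroblast-like cells held 4738 Pgr UMIs in 852 control-labelled cells (493 CPM, 479 to 507) and 12102 in 1339 cKO-labelled cells (751 CPM, 738 to 765). The log2 ratio was 0.60 (0.55 to 0.65), under 2-fold, and 0.51 without cluster 9, of whose cells 92.7% were cKO-labelled. All 4 clusters compared were higher in the cKO-labelled library, by 0.44 in cluster 7 (led by Ptx3 and Thbs2, with Il6 and Lif among its leading genes), 0.39 in cluster 8 (led by Pi16), 0.63 in the shallow cluster 15 (led by Col1a2 and Col1a1) and 0.95 in cluster 19 (led by Hsd11b2, with the heat shock gene Hspa1a). Cluster 9, led by Aldh1a2 and Scube1, already stood at 958 CPM in its 18 control-labelled cells and at 912 CPM in its 230 cKO-labelled cells.

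Epithelium-like cells had little Pgr, and its ratio was high. It had 500 UMIs in 1318 control-labelled cells (26.4 CPM, 24.2 to 28.9) and 117 UMIs in 110 cKO-labelled cells (86.7 CPM, 71.7 to 104), a log2 ratio of 1.54 (1.27 to 1.82). The 5 highest cells held 48 of those 117 UMIs. The class was not made of the same cells in both libraries, since clusters 1, 3 and 10 held 465 control-labelled and 2 cKO-labelled cells, and without them the ratio was 1.11. Cluster 0 (600 and 67 cells, just short of the limit of 90% from 1 library) stood at 35.3 and 161 CPM and cluster 11 (253 and 41 cells) at 38.2 and 62.6 CPM, the latter a ratio of 0.64 (0.25 to 1.03). The 6 smooth muscle markers summed to 63.5 and 231 CPM in epithelium-like cells and the 6 fibroblast markers to 42.4 and 23.7 CPM. Together they stood at 135 CPM in Pgr-positive and 86.5 CPM in Pgr-negative control-labelled cells, and at 257 and 247 CPM in cKO-labelled cells. The part of this in the Pgr values was not tested.

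Pgr in immune classes lay in cells rich in stromal RNA. Dendritic cell-like cells had 8 Pgr UMIs in 121 control-labelled cells (6.09 CPM) and 89 in 210 cKO-labelled cells (45.8 CPM), a log2 ratio of 2.19 (1.51 to 2.79). Those 89 UMIs lay in 13 cells, 43 of them in 1 cell. Muscle and fibroblast markers stood at 2000.03 CPM in the positive and 169 CPM in the negative cKO-labelled cells. Leaving out the cells with the highest doublet scores left 2 and 33 UMIs (1.80 and 19.95 CPM).

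Macrophage or monocyte-like cells had 136 and 97 Pgr UMIs (43.6 and 58.4 CPM), a log2 ratio of 0.38 (0.03 to 0.74) that turned to -0.22 in cells with at most 10% mitochondrial UMIs. Without the cells of highest doublet score it was 1.79, on 13 and 44 UMIs (4.89 and 29.2 CPM). Stromal markers stood at 4970.3 and 5266 CPM in the positive cells against 557 and 775 CPM in the others. This class was also split unevenly, with its interferon cluster 2 (Ccl12, Rsad2, Ifit2) holding 124 control-labelled and 18 cKO-labelled cells. T or NK cell-like cells had 17 and 28 Pgr UMIs (19.1 and 17.3 CPM). Erythroid markers summed to 9.62 and 1760.4 CPM in macrophage or monocyte-like and 3.81 and 1521 CPM in dendritic cell-like cells, so red cell RNA also moved with the label there. How much of this Pgr belongs to immune cells was not tested.

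Esr1 (chr10:4611593-5005614, plus strand), which carries most oestrogen action in the uterus, did not follow Pgr in muscle. Smooth muscle-like cells had 255 UMIs (274 CPM, 242 to 310.1) in the control-labelled and 640 UMIs (304 CPM, 281 to 329) in the cKO-labelled library. The intervals overlapped and the log2 ratio was 0.15 (-0.06 to 0.36), and a difference could not be detected at this depth. An Esr1 UMI was found in 40.3% and 45.2% of cells, or 23.4% and 25.3% after thinning, against 0 of 183 and 0.480% of 417 T or NK cell-like cells (the count of 0 allows up to 4.15 CPM). Cluster 13 stood at 297 and 388 CPM and cluster 18 at 273 and 250.3 CPM, in opposite directions.

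Esr1 was higher in cKO-labelled fibroblast-like cells. It was counted 837 times (87.1 CPM, 81.3 to 93.2) and 2557 times (159 CPM, 153 to 165), a log2 ratio of 0.83 (0.72 to 0.94). Of the genes tested in the class, 2.18% had a ratio as high or higher. Cluster 9 made up much of that sum: its cKO-labelled cells held 1202 of the 2557 UMIs at 259.8 CPM, and without the cluster the ratio was 0.43. All 4 other fibroblast-like clusters were higher in the cKO-labelled library, from 0.32 (0.16 to 0.48) in cluster 7 to 0.97 (0.44 to 1.50) in cluster 15. Of these 4, cluster 19 had the highest Esr1 in both libraries, 206 and 349 CPM.

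Epithelium-like cells had 1829 Esr1 UMIs (96.7 CPM, 92.3 to 101) and 179 (133 CPM, 114 to 154), a log2 ratio of 0.44 (0.22 to 0.65). It was 0.19 without clusters 1, 3 and 10. The shared clusters disagreed, with 89.2 and 179 CPM in cluster 0 and 132 and 120.2 CPM in cluster 11. In the control-labelled library Esr1 was at 84.4 CPM in cluster 10, which has the low-oxygen genes Ankrd37 and Bnip3 among its leading genes, and at 68.1 CPM in cluster 3, led by interferon genes such as Ifnb1 and Oas2. Macrophage or monocyte-like cells stood at 15.4 and 15.1 CPM and dendritic cell-like cells at 9.13 and 8.23 CPM.

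Nr2f2 (chr7:70351944-70366735, minus strand) was higher in the cKO-labelled library in the 3 structural classes. In smooth muscle-like cells it had 175 UMIs (188 CPM, 161 to 218) and 562 UMIs (267 CPM, 246 to 290.3), a log2 ratio of 0.49 (0.25 to 0.74). Fibroblast-like cells had 1244 UMIs (129 CPM, 122 to 137) and 2926 UMIs (182 CPM, 175 to 188), a log2 ratio of 0.47 (0.38 to 0.57). All 4 fibroblast-like clusters compared had it higher in the cKO-labelled library, most in cluster 19 at 239 and 450.1 CPM. Epithelium-like cells had 601 UMIs (31.8 CPM) and 74 UMIs (54.8 CPM), a log2 ratio of 0.70 (0.37 to 1.02). That value was 0.15 without clusters 1, 3 and 10, and the sign differed between cluster 0 (1.50) and cluster 11 (-0.41). Of the genes tested, 24.0% in smooth muscle-like, 8.15% in fibroblast-like and 24.0% in epithelium-like cells had a ratio as high or higher. Lymphatic endothelium-like cells had 138 Nr2f2 UMIs in 22 control-labelled cells (343 CPM). They had 130 in 75 cKO-labelled cells (124 CPM), too few cells for a comparison.

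Greb1 (chr12:16670615-16800886, minus strand), which oestrogen is known to induce through Esr1, was, like Pgr, higher in cKO-labelled muscle. Smooth muscle-like cells had 319 UMIs (343 CPM, 307 to 383) and 1238 UMIs (589 CPM, 556 to 623), a log2 ratio of 0.77 (0.59 to 0.95). A Greb1 UMI was found in 25% and 40.3% of the class, or 13.96% and 24.89% after thinning, against 3.28% and 1.68% of T or NK cell-like cells. Contractile cluster 13 had little Greb1, 69.3 and 150.4 CPM (24 and 79 UMIs), a log2 ratio of 1.06 (0.42 to 1.74). Cluster 18 had much more, 541 and 723 CPM (264 and 864 UMIs). Its ratio was 0.41 (0.22 to 0.62), an interval below the class value of 0.77. The level thus differed more between those clusters than between the libraries within either. Cluster 24, too small to compare, had 324 and 771 CPM (31 and 295 UMIs) in 12 and 88 cells. The part of the cluster mix in the class ratio was not tested.

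Greb1 differed less in the other structural classes and stood lower in the cKO-labelled library in 3 immune classes, on few UMIs. Fibroblast-like cells had 2173 UMIs (226 CPM, 217 to 236) and 4215 UMIs (262 CPM, 254 to 269.7), a log2 ratio of 0.21 (0.13 to 0.28), with 3 of 4 clusters higher and cluster 19 at 56.1 and 51.4 CPM. Epithelium-like cells had 2257 UMIs (119 CPM, 114 to 124) and 137 UMIs (102 CPM, 85.3 to 120.0), a log2 ratio of -0.22 (-0.47 to 0.02), whose interval includes 0. Macrophage or monocyte-like cells had 57 and 15 UMIs (18.3 and 9.04 CPM), a log2 ratio of -0.73 (-1.30 to -0.13). Of the control-labelled UMIs 37 lay in interferon cluster 2, and in cluster 6, the only one compared, Greb1 stood at 10.3 and 9.67 CPM, a ratio of -0.06 (-0.74 to 0.63). Without cells of high doublet score 3 and 11 UMIs were left, and the direction turned to 1.00. Dendritic cell-like cells had 19 and 12 UMIs, a log2 ratio of -0.80 (-1.47 to -0.07) that turned to 0.44 without those cells. In T or NK cell-like cells there were 11 and 8 UMIs and a ratio of -0.80 (-1.58 to 0.08), under the minimum level.

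**Figure D3:**
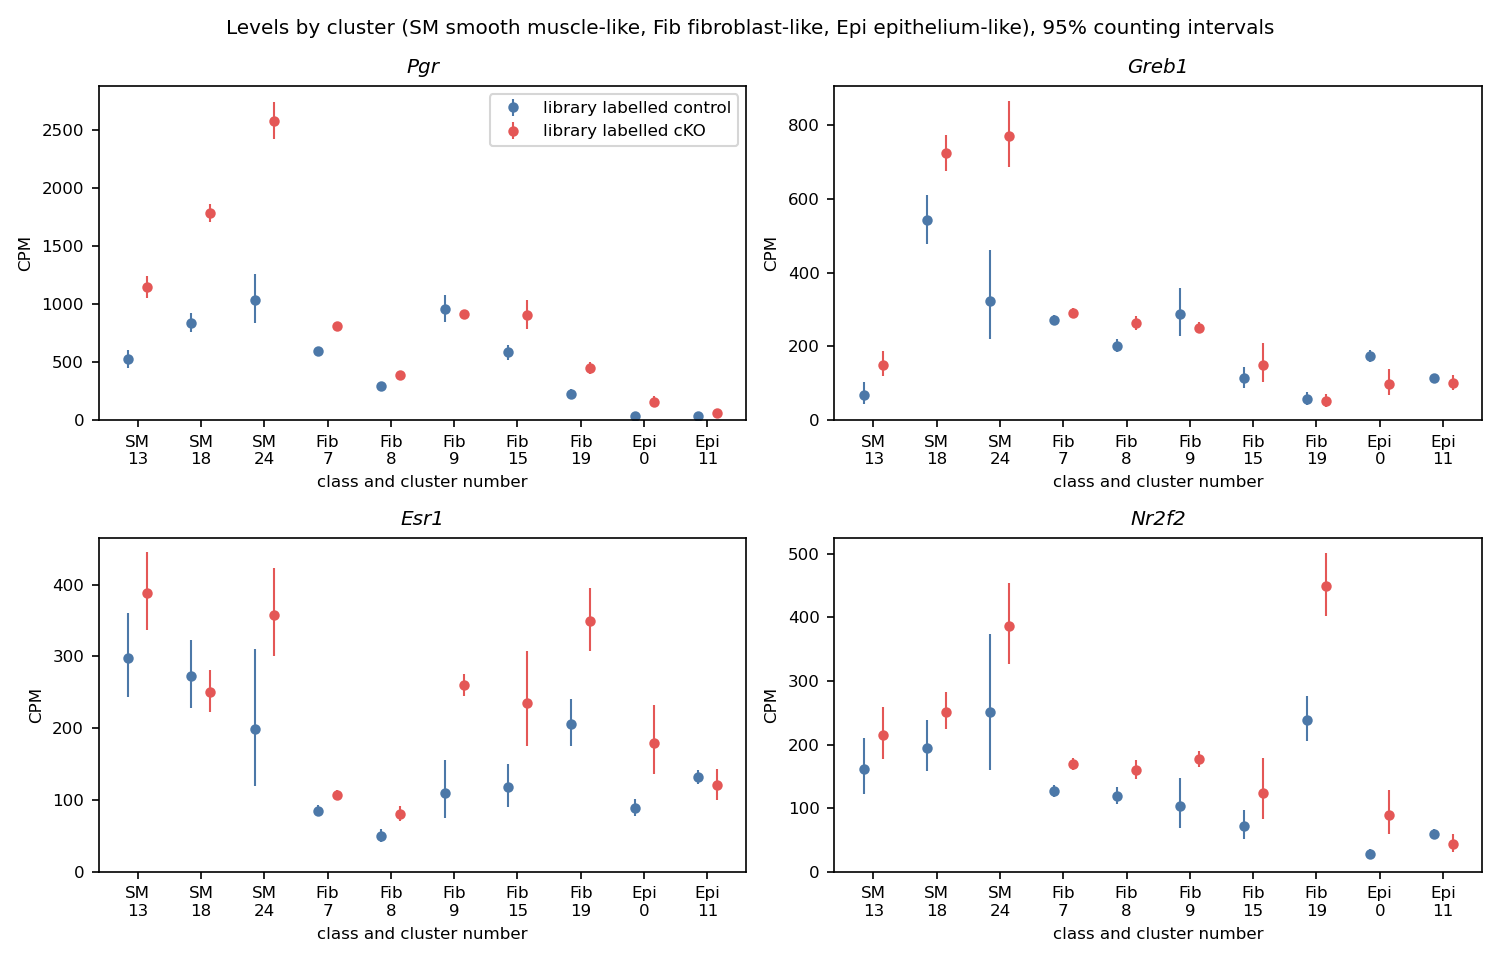
Level in CPM (y axis, linear from 0) of Pgr, Greb1, Esr1 and Nr2f2 in the smooth muscle-like (SM), fibroblast-like (Fib) and epithelium-like (Epi) clusters with at least 10 cells in both libraries. Points are summed UMIs per cluster and library with 95% Poisson intervals. Pgr is higher in the cKO-labelled library in all 3 SM clusters, 1144 against 526 CPM in cluster 13, and nearly level in Fib cluster 9 at 912 and 958 CPM.

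Pgr and Greb1 had the highest ratios of the 7 genes in smooth muscle-like cells, so the 250 bases before the annotated start of Pgr and before both annotated starts of Greb1 are shown, from RefSeq on GRCm38.p6. Capitals mark matches to the motifs searched, on both strands. These were GGTCA, 1 arm of the oestrogen response element, AGAACA, 1 arm of the glucocorticoid or progesterone response element, each full element (an arm, 3 bases of any kind and the arm's reverse complement, so that a full match also holds arm matches), the GC box GGGCGG, the TATA box TATAAA and the AP-1 site TGANTCA.
Pgr promoter, chr9:8899583-8899832, plus strand: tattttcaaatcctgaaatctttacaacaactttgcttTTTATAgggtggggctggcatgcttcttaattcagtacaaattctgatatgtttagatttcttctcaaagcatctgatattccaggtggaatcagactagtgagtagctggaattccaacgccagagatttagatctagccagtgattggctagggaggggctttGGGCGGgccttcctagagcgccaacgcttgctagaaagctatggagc
Greb1 promoter, chr12:16800887-16801136, minus strand: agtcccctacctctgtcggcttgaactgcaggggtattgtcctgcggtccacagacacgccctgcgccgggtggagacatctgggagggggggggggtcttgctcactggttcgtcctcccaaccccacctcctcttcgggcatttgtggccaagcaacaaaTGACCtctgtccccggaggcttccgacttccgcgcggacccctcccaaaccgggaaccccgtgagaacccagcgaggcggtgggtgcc
Greb1 second start, chr12:16757240-16757489, minus strand: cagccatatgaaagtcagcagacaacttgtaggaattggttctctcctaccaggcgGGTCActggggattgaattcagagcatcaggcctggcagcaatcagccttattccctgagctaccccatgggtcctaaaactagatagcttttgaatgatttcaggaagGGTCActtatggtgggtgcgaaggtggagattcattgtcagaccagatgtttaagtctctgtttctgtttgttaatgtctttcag
The Pgr window held 1 TATA box match, on the reverse strand and 212 to 207 bases before the start, and 1 GC box match 47 to 42 bases before it. Of 32851 mouse promoter windows of this length, 12.4% hold the TATA box letters and 32.7% the GC box letters. The first Greb1 window held 1 reverse-strand match to the oestrogen element's arm, 88 to 84 bases before the start. The window of the second start, which lies inside the gene, held a pair of matches to it, 194 to 190 and 85 to 81 bases before that start. Of all windows, 35.2% hold this arm. The full oestrogen response element occurred in 0.0639% of all windows, and in 0 of the 10 windows found for 6 of the 7 genes. The full glucocorticoid or progesterone element (0.00913% of all windows) and the AP-1 site (6.75%) also had 0 matches in them, and 1 Tsc22d3 window held the AGAACA arm (16.1%).

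Nr3c1, through which cortisol-like hormones act, was lower in cKO-labelled fibroblast-like cells and about level in muscle. Smooth muscle-like cells had 161 UMIs (173 CPM, 147 to 202) and 400 UMIs (190.2 CPM, 172 to 209.8), a log2 ratio of 0.13 (-0.13 to 0.40). Fibroblast-like cells had 1744 UMIs (182 CPM, 173 to 190.2) and 2164 UMIs (134 CPM, 129 to 140.1), a log2 ratio of -0.42 (-0.51 to -0.33), and 5.04% of the genes tested were as low or lower. All 4 clusters compared were lower in the cKO-labelled library, from -1.47 to -0.06, and the part of the cluster mix was not tested. Cluster 9 had only 45.6 CPM in its 230 cKO-labelled cells, and without it the ratio was -0.12. Clusters 7 and 8 differed little, with 149 and 142 CPM and 277 and 266 CPM, while cluster 19 had 168 and 128 CPM and cluster 15 119 and 39.8 CPM on 67 and 9 UMIs.

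Epithelium-like cells had 1134 Nr3c1 UMIs (59.95 CPM) and 72 UMIs (53.4 CPM, 41.8 to 67.2), a log2 ratio of -0.15 (-0.48 to 0.16), whose interval includes 0. T or NK cell-like cells had most Nr3c1 over both libraries summed. They held 511 UMIs (575 CPM, 526 to 627) and 1239 UMIs (767 CPM, 725 to 811), a log2 ratio of 0.41 (0.26 to 0.56). It fell to 0.18, outside that interval, with at least 2000 UMIs per cell, and kept its sign in 14 of 14 alternatives. Per 100 cells the class held 279 and 297 Nr3c1 UMIs. Both of its clusters were higher in the cKO-labelled library, cluster 12 (Trdc, Cd3e) at 626 and 767 CPM and cluster 22 (Cd28, Cd4) at 529 and 766 CPM. Markers of other cells moved with the label in this class, the 6 fibroblast markers at 469 and 37.8 CPM and the 4 erythroid markers at 15.8 and 3370.3 CPM, and their part in its ratios was not tested. A UMI was found in 81.4% and 81.8% of these cells, against 28.7% and 22.7% of epithelium-like cells, which are deeper at medians of 4369.5 and 4065.5 UMIs. No class that should lack the receptor was at hand as a background.

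Tsc22d3 (chrX:140539528-140600659, minus strand) had a ratio above 0 in the 6 classes, although in muscle it was -0.01 with median of ratios scaling. T or NK cell-like cells had 72 and 206 UMIs (81.0 and 128 CPM), a log2 ratio of 0.62 (0.25 to 1.01). Fibroblast-like cells had 215 and 573 UMIs (22.4 and 35.6 CPM), a log2 ratio of 0.57 (0.38 to 0.76), and all 4 clusters compared were higher, from 0.46 to 1.18. Epithelium-like cells had 316 and 38 UMIs (16.7 and 28.2 CPM), a log2 ratio of 0.61 (0.18 to 1.03), which thinning to 1000 UMIs per cell turned to -0.94. The interval lay above 0 in these 3 classes. It also did so in macrophage or monocyte-like cells at 34.9 and 55.4 CPM (0.60, 0.22 to 0.97), and in dendritic cell-like cells at 32.7 and 56.5 CPM (0.71, 0.24 to 1.18). In epithelium-like cells the interval included the median of all genes, 0.22, and 28.3% of the genes tested had a ratio as high or higher. Within T or NK cell-like cells the ratio was 0.56 (-0.06 to 1.22) in cluster 12 and 1.14 (0.66 to 1.64) in cluster 22. Within macrophage cluster 6, the only one of that class compared, Tsc22d3 was at 45.9 and 55.4 CPM, a ratio of 0.25 (-0.16 to 0.65) whose interval includes 0. Smooth muscle-like cells had 16 and 42 UMIs (17.2 and 19.98 CPM), a log2 ratio of 0.17 (-0.52 to 0.86), so no difference was detectable there, and clusters 13 (0.85) and 18 (-0.23) had opposite signs.

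Fkbp5 (chr17:28399094-28517527, minus strand), the other glucocorticoid target, had ratios of both signs. It had 26 and 66 UMIs in smooth muscle-like cells (27.97 and 31.4 CPM), a log2 ratio of 0.14 (-0.44 to 0.74). Fibroblast-like cells had 125 and 155 UMIs (13.01 and 9.62 CPM), a log2 ratio of -0.30 (-0.54 to -0.06) that turned to 0.13 after thinning. In T or NK cell-like cells it had 21 and 63 UMIs (23.6 and 39.00 CPM), a log2 ratio of 0.62 (-0.01 to 1.26), whose interval just includes 0. Under the minimum level were epithelium-like cells with 46 and 3 UMIs, macrophage or monocyte-like cells with 24 and 5, and dendritic cell-like cells with 2 and 14, the last a log2 ratio of 0.90 (0.06 to 1.34). Fkbp5 shares its locus with the sense gene AC154912.5 and the antisense gene AC154912.1, Greb1 with the antisense Gm48140 and Nr2f2 with B130024G19Rik on the other strand. Whether counting used strand is not given in the sources used here, so their reads may not be separable.

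Genes that these receptors act on or need were followed in 6 lists, beside 1 list of genes raised by tissue digestion, and the counts below are of genes with a mean of at least 10 CPM. A gene under 10 CPM in 1 library passed only through the other, so that minimum favours its call, which carries no weight. Among the called genes these were C3, Sprr2f and Pdk4 in smooth muscle-like, Hand2 in fibroblast-like, and Hsd17b2 and Hsd17b4 in epithelium-like cells. In smooth muscle-like cells the oestrogen target list had a median log2 ratio of 0.34 over 11 of its 17 genes, against 0.20 for all genes, with 0 called higher and 2 lower. Inhbb, an activin and inhibin subunit, was at 707 and 1383 CPM (0.96, 0.84 to 1.09), and Oxtr, the oxytocin receptor, at 331 and 647 CPM (0.95, 0.78 to 1.14), both just under 2-fold. The 2 called lower were C3, complement component 3, with 16 and 6 UMIs, and Sprr2f, a small proline-rich protein, with 22 and 18. Both are strong in uterine epithelium, and the 6 epithelium markers in smooth muscle-like cells summed to 49.5 and 11.9 CPM, with none at 0. Their part in the C3 and Sprr2f values was not tested.

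The progesterone target list in smooth muscle-like cells had a median of 0.29 over 7 of 16 genes with 0 called. Wnt4, a secreted signal, was at 45.2 and 88.0 CPM (0.89, 0.44 to 1.36) and Hoxa10, a uterine patterning factor, at 88.2 and 134 CPM (0.57, 0.23 to 0.93), while Gata6 was at 499 and 392 CPM (-0.35). The glucocorticoid target list had a median of 0.08 over 14 of 16 genes, with 1 called in each direction. Pdk4, which slows glucose oxidation, was called higher on 6 and 53 UMIs (1.40, 0.58 to 2.11), and Anxa1, an anti-inflammatory annexin, lower at 119 and 41.4 CPM (-1.42, -1.81 to -1.04). Errfi1, a feedback inhibitor of EGF receptors, was at 2076 and 3512 CPM (0.76).

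No gene was called among 6 of 11 other receptors (median 0.11), 17 of 17 chaperones and coregulators (0.17) or 4 of 11 steroid metabolism genes (-0.05) in smooth muscle-like cells. Foxo1, a partner of Pgr, was at 213 and 361 CPM (0.75, 0.52 to 0.97), and Nr4a1, a quickly induced orphan receptor, at 857 and 528 CPM (-0.69). The dissociation response list had a median of -0.39 with 11 of 13 genes below 0, among them Fos at 3629 and 1911 CPM and Egr1 at 3936 and 1985 CPM.

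In fibroblast-like cells the progesterone target list had the highest median of the lists, 0.71 over 9 of 16 genes against 0.09 for all genes, with 2 called higher, Hand2 and Ptch1, 0 lower and 8 of 9 above 0. Hand2, a stromal factor that progesterone induces, had 34 UMIs (3.54 CPM) and 501 UMIs (31.1 CPM), a log2 ratio of 2.08 (1.84 to 2.30). Ptch1, the hedgehog receptor, was at 10.5 and 27.3 CPM (1.06, 0.83 to 1.28), Prlr, the prolactin receptor, at 52.8 and 57.9 CPM, and Gata6 at 80.9 and 41.0 CPM (-0.90, -1.04 to -0.76). Without cluster 9 the median of the list was 0.19.

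The oestrogen target list in fibroblast-like cells had a median of 0.36 over 9 of 17 genes, 1 called higher and 0 lower. Ramp3, a co-receptor for adrenomedullin, was at 87.3 and 367 CPM (2.01, 1.91 to 2.11) and Xbp1, a factor of secretory cells, at 132 and 267 CPM (0.99), while the chemokine Cxcl12 was at 321 and 254 CPM (-0.33). The glucocorticoid target list stood at -0.08 over 13 genes with 0 called. Its named genes ran from Mt1, a metallothionein, at 1185 and 767 CPM (-0.63) to Glul, glutamine synthetase, at 96.0 and 172 CPM (0.81). None of 17 chaperones and coregulators (0.10) or 5 steroid metabolism genes (0.14) was called. Hsd11b2, which inactivates glucocorticoids, was at 30.6 and 58.4 CPM (0.83) and Nrip1, a corepressor, at 151 and 229.7 CPM (0.59). The dissociation response list stood at -0.11 with 0 of 13 called.

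In epithelium-like cells the oestrogen target list had a median of -1.10 over 11 of 17 genes against 0.22 for all genes, with 1 called higher and 6 lower. C3 was at 2054 and 302 CPM (-2.74, -2.89 to -2.61) and Ltf, lactoferrin, at 1527 and 356 CPM (-2.09, -2.22 to -1.96). The other 4 called lower, named after their values were seen, were Muc1, Gja1, Inhbb and Sprr2f. Ccnd1, cyclin D1, was called higher at 71.2 and 242 CPM (1.70), and Wnt7a was at 28.0 and 58.6 CPM (0.94). Without clusters 1, 3 and 10 the list's median was -0.50. In the same cells Esr1 had a ratio of 0.44 and Greb1 of -0.22.

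The progesterone target list in epithelium-like cells had only 4 genes past the minimum and a median of 0.60. Fst, the activin binder follistatin, was called higher at 62.2 and 241 CPM (1.87, 1.70 to 2.04), Wnt4 lower at 56.9 and 23.0 CPM (-1.15), and Areg, an epithelial growth factor, was at 24.5 and 29.6 CPM. The glucocorticoid target list stood at 0.01 over 13 genes with 2 called higher, the metallothioneins Mt1 (1.71) and Mt2 (2.18), and 2 lower, Ddit4 (-1.72) and Errfi1 (-1.07). Called genes among other receptors were 1 higher and 0 lower of 6 (median 0.43), among chaperones and coregulators 1 higher and 1 lower of 17 (-0.02), among steroid metabolism genes 1 higher and 1 lower of 4 (0.02), and in the dissociation response list 0 higher and 2 lower of 13 (-0.41). Hsd17b2, which inactivates oestradiol, had 1558 UMIs and 1 UMI, and was a leading gene of cluster 10, with its 219 control-labelled cells and 1 cKO-labelled cell. Pgrmc1, a steroid-binding membrane protein, was called higher at 59.4 and 182 CPM (1.54), and so was Fkbp4, the co-chaperone that Pgr needs in the uterus, at 65.7 and 162 CPM (1.24). Foxo1 was called lower at 234 and 93.4 CPM (-1.28).

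**Figure D4:**
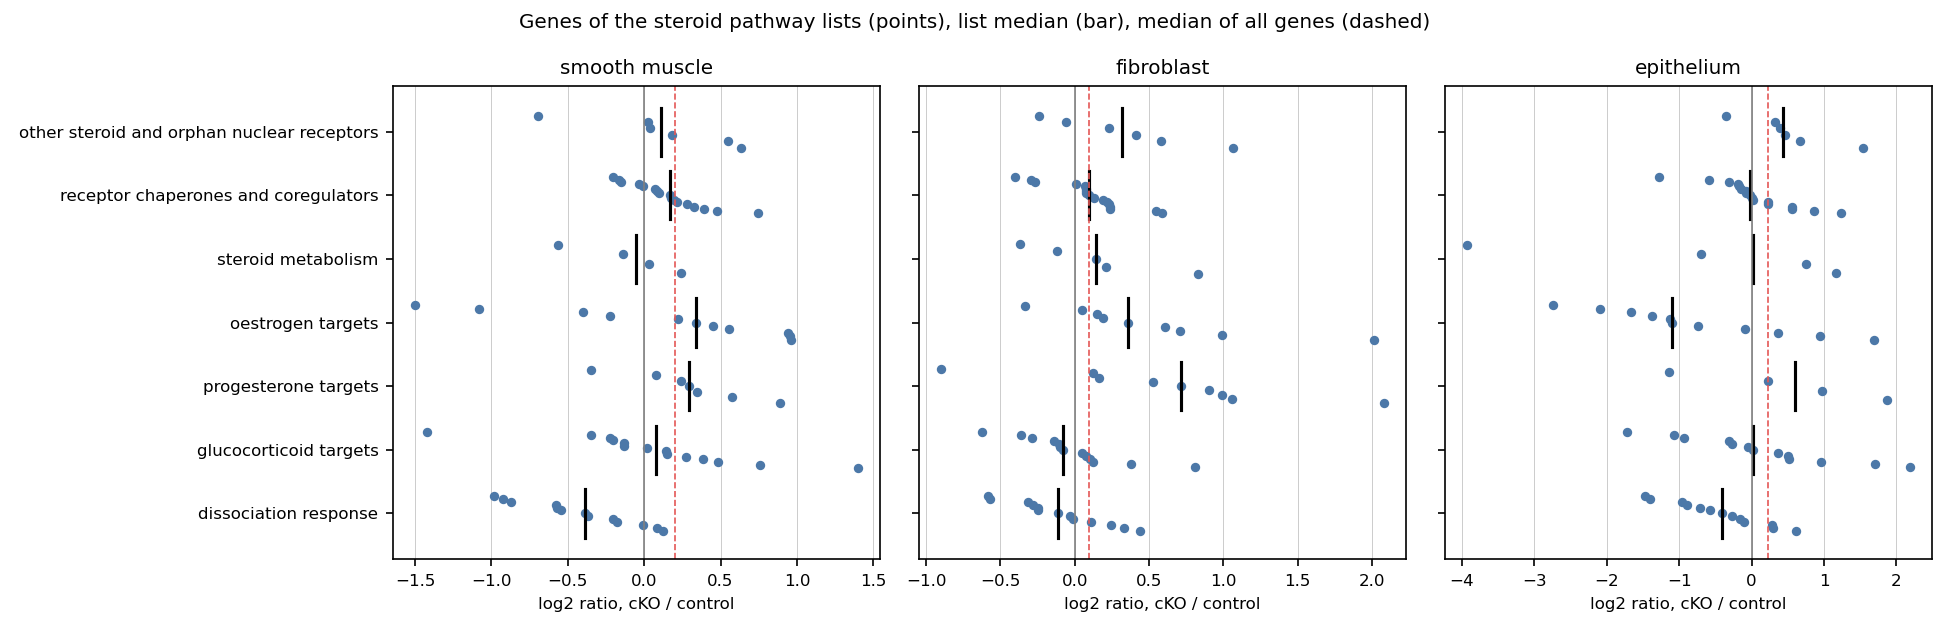
log2 ratio (x axis, cKO-labelled over control-labelled library, 5 CPM added) of the genes of each list in smooth muscle-like, fibroblast-like and epithelium-like cells. Points are genes with a mean of at least 10 CPM, bars are list medians and the dashed line is the median of all genes. The progesterone target bar is at 0.71 in fibroblast-like cells and the oestrogen target bar at -1.10 in epithelium-like cells.

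Across the 12 levels given by 6 classes in 2 libraries, the pattern of each gene was set against 6718 genes with a mean of at least 20 CPM, on the log2(CPM + 5) scale. The points share libraries and depths, so the Pearson correlations are descriptions and have no p. Esr1 was nearest to Nfib, Sh3pxd2a and Gata2 (r from 0.979 to 0.982), and Pgr to Akap1, Rbms3 and Gnl3 (0.976 to 0.986). Nr2f2 was nearest to Timp3, Snhg4 and Btbd3 (0.982 to 0.985), and Greb1 had r = 0.987 with Wwtr1 and 0.987 with Emx2. Nr3c1 was nearest to Retreg3, Tmem64 and Rasa3 (0.961 to 0.973), Fkbp5 to Usp15, Pde5a and Prkd3 (0.953 to 0.959), and Tsc22d3 to Faim, Polr2a and Il2rb (0.951 to 0.964). Among the 7 genes themselves, Nr2f2 had r = 0.959 with Greb1, 0.952 with Esr1 and 0.947 with Pgr. Nr3c1 had r = 0.790 with Fkbp5 and 0.702 with Tsc22d3, against -0.509 with Esr1.

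At 5000 UMIs per cell, pairs of receptors were found together in single fibroblast-like cells at, slightly above or slightly below what their separate shares give. In fibroblast-like cells thinned to 5000 UMIs, 22.0% of 541 control-labelled and 33.8% of 997 cKO-labelled cells had both Esr1 and Pgr, against products of the separate shares of 20.4% and 30.6%. Pgr and Nr3c1 were together in 30.5% and 31.1%, against products of 33.7% and 32.5%. The first pair was slightly above its product and the second slightly below it in both libraries. Smooth muscle-like cells, with fewer cells, held wider departures, named after their values were seen. Esr1 and Nr2f2 were together in 25.5% of 51 control-labelled cells thinned to 5000 UMIs against a product of 16.1%, but in 37.0% of 119 cKO-labelled cells against 39.1%. At 1000 UMIs Esr1 and Nr3c1 were together in 2 of 308 control-labelled cells (0.649% against 2.38%) and in 4.10% of cKO-labelled cells against 3.47%.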

How the data were processed

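The measurements are counts of UMIs per gene and droplet from 10x 3-prime libraries. The authors made the counts with Cell Ranger on mm10. The file headers name version 4 and the submitters' processing notes version 6.1.1, and the deposited matrices hold whole UMI counts for all barcodes, with no normalization. The libraries total 45035801 (control) and 34261441 (cKO) UMIs, of which 83.4% and 85.7% lay in the cells kept.

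Cells had at least 1000 UMIs, 500 genes and at most 20% mitochondrial UMIs. They were clustered with scanpy 1.11.5 (Python 3.11.15, igraph 0.11.9) on 2000 variable genes, 30 principal components and 15 neighbours by Leiden at resolution 1, with the 7 genes and the steroid lists left out of the variable genes. Clusters were named from at least 3 markers of a type, and cluster 14, with fewer, stayed unnamed. Clusters 23 and 25 were left unnamed for lymphocyte genes among their leading genes, a rule chosen after those genes were seen. Raw UMIs were summed per class and library and scaled to CPM. Intervals (scipy 1.17.1, numpy 2.4.6) are exact Poisson for levels, Clopper-Pearson for shares and exact conditional for ratios, and PCR and UMI errors are outside them. Free RNA was estimated from epithelial and stromal markers in T or NK cell-like cells against droplets of at most 100 UMIs. Scrublet marked too few cells to be used, so the 97 and 103 cells with the highest scores were removed only as an alternative. The ratios and their intervals were tested on simulated Poisson counts only. This is the model that the intervals assume, so the test cannot show how they hold where UMIs are clumped in a few cells.

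The members, lists and alternatives were chosen with earlier results of these data known. The text names the 7 genes, genes among the 2 highest and 2 lowest ratios of each list in the 3 structural classes, and the 3 genes most like each member, with exceptions said where they occur. Values of 2 genes that this rule picks are not reported here. Promoters were read from RefSeq (GRCm38.p6), and gene positions from GENCODE, to which 99.8% of gene IDs matched. The mean over clusters was added as an alternative after seeing the data. Other alternatives were the scaling, the pseudocount, the filters, the resolution, thinning, free RNA subtraction, the mean of per-cell CPM and leaving out clusters drawn over 90% from 1 library.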

Additional observations from a re-analysis of the deposited data

Results flagged for a closer look

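Droplets of at most 100 UMIs, which hold free RNA and enter no comparison above, also contained the 7 genes. Pgr had 245 UMIs (95.03 CPM) in the control-labelled and 598 UMIs (326 CPM) in the cKO-labelled empty droplets, a ratio of 3.43 (2.95 to 3.997). Nr2f2 stood at 112 and 173 UMIs, a ratio of 2.17 (1.70 to 2.78). Tsc22d3 stood at 80 and 122 UMIs, a ratio of 2.14 (1.60 to 2.88). Esr1 stood at 212 and 208 UMIs, a ratio of 1.38 (1.13 to 1.68). Nr3c1 stood at 259 and 245 UMIs, a ratio of 1.33 (1.11 to 1.59). These 5 were marked because the interval lay above 1, while the intervals of Greb1 (1.14) and Fkbp5 (1.27) included 1. The cKO-labelled library also had more muscle-like and fibroblast-like cells (19.0% and 37.3% of cells against 8.83% and 24.4%). The part of this in the ratios was not tested. Subtracting the free RNA from each class left Pgr at 1.25 in smooth muscle-like, 0.61 in fibroblast-like and 1.84 in epithelium-like cells. The subtraction used the estimates given earlier, in which the part of doublets was not tested.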

How the results depend on the processing

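No paired analysis was possible because each group has 1 library. Of the log2 ratios of the 7 genes in 6 classes, 491 recomputed values stayed within their counting interval and 83 moved out of it. Pgr in smooth muscle-like cells stayed between 1.02 and 1.36 in 14 of 14 alternatives. The cause of the changes below was not tested.

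Median of ratios scaling, which sets the median of all genes to 0, gave -0.073 for Esr1, 0.55 for Greb1 and 1.02 for Pgr in smooth muscle-like cells. In fibroblast-like cells it gave Greb1 0.10, Nr2f2 0.37, Nr3c1 -0.52 and Pgr 0.50, and in epithelium-like cells Esr1 0.19 and Greb1 -0.47. Leaving out clusters drawn over 90% from 1 library gave Esr1 0.43, Nr3c1 -0.12 and Pgr 0.51 in fibroblast-like cells, and Esr1 0.19, Nr2f2 0.15, Nr3c1 0.16 and Pgr 1.11 in epithelium-like cells. The mean over clusters, added after seeing the data, gave Pgr 1.10 in smooth muscle-like, Esr1 0.67, Nr2f2 0.62 and Tsc22d3 0.83 in fibroblast-like and Greb1 -0.48 in epithelium-like cells.

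The mean of per-cell CPM gave Greb1 0.96 in smooth muscle-like cells. In fibroblast-like cells it gave Esr1 0.65, Greb1 0.42, Nr2f2 0.72, Nr3c1 -0.23 and Pgr 0.50, and in epithelium-like cells Esr1 0.85 and Nr3c1 0.19. Thinning cells to 1000 UMIs gave Fkbp5 0.99 in smooth muscle-like cells, and in fibroblast-like cells Fkbp5 0.13, Greb1 0.52, Nr3c1 -0.21, Pgr 0.45 and Tsc22d3 0.85. In epithelium-like cells it gave Esr1 0.72, Fkbp5 -0.68, Nr3c1 -0.53, Pgr 2.10 and Tsc22d3 -0.94. Pgr in epithelium-like cells was 1.84 with free RNA subtracted and 1.20 with 20 CPM added.

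Thinning called 2 of the 7 genes higher in macrophage or monocyte-like cells, 2 in T or NK cell-like cells and 2 in epithelium-like cells. A minimum of 2000 UMIs called 1 higher in T or NK cell-like cells, resolution 2 called 2 higher in dendritic cell-like cells, and removing high doublet scores called 1 higher in macrophage or monocyte-like cells. In the last class 1 was called lower at resolution 2, at most 10% mitochondrial UMIs and with the members among the variable genes, and 1 was called lower in dendritic cell-like cells with 1 CPM added. The oestrogen target list in epithelium-like cells had a median of -0.38 after thinning, -0.71 over per-cell CPM, -0.09 with no minimum level and -1.36 with median of ratios scaling. Depth limits Fkbp5 and Tsc22d3 in smooth muscle-like cells, with 26 and 16 UMIs in the control-labelled library.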

Other observations

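Clusters that the markers left unnamed also held the genes. Cluster 14, led by Irf8, Klre1 and Gzma with the cytotoxic gene Prf1, had Tsc22d3 at 145 and 253 CPM in 139 control-labelled and 297 cKO-labelled cells, a log2 ratio of 0.78 (0.48 to 1.09). Its Nr3c1 stood at 319.7 and 401 CPM and its Fkbp5 at 30.8 and 41.6 CPM. In 11 and 24 cells of cluster 23, in which fibroblast and lymphocyte genes occur together, Pgr stood at 208 and 602 CPM and Greb1 at 102 and 282 CPM. Cluster 25, with the endothelial genes Emcn and Selp beside Il5 and Gata3, had Pgr at 27.8 and 163 CPM and Nr2f2 at 55.5 and 100.1 CPM in 33 and 63 cells. Mesothelium-like cells (82 and 31) had Esr1 at 152 and 143 CPM, Nr2f2 at 181 and 216 CPM and Pgr at 21.4 and 41.1 CPM. Mast cell-like cells (42 and 53) had Nr3c1 at 669 and 523 CPM, and B cell-like cells (24 and 28) at 434 and 205 CPM. Per 100 cells, however, B cell-like cells held 242 and 243 Nr3c1 UMIs. The 4 plasma cell markers in this class summed to 2841 and 189578 CPM, and the 4 B cell markers to 1473 and 752 CPM. The part of these in the Nr3c1 levels was not tested.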
